A study of Mus musculus with 6 samples.

Results

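CD8 T cells of MOC-2 tumors were taken from single-cell RNA counts by a rule on a few genes, which 103 of 13768 kept cells met. MOC-2 is a mouse oral squamous carcinoma line, and 100000 cells of it had been placed under the skin of male mice. The labels list 3 tumors injected with vehicle and 3 with an experimental agent, all taken 24 hours after the injection, and a viability dye was the only gate of the sort, before cells were tagged by tumor and pooled. The reagents in the labels were copper diethyldithiocarbamate, the adenosine receptor agonist 2-C1-IB-MECA, the cyclic dinucleotide 2'3'-c-di-AM(PS)2, 5'ppp-dsRNA, R848, the TGF-beta receptor inhibitor galunisertib, epcadostat, Nw-Hydroxy-nor-L-arginine, L-NMMA, clodronate and 4-1BB ligand, and which of them the treated tumors received is not said. No label tied a tag or a barcode ending to a tumor, so treated and vehicle tumors were not compared, and the matrix was described as 1 pooled sample. Cells sharing 1 of the 6 barcode endings are called a barcode set, which belongs to no treatment group here.

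CD8 T cells recognise peptides held by MHC class I molecules on other cells and kill the cell that shows them, mainly by releasing perforin and granzymes from granules. In tumors they are met as cells poised for killing, as dividing cells, as stem-like cells marked by the transcription factor TCF-1, and as cells that carry inhibitory receptors such as PD-1 after long stimulation. NK cells kill with the same granule proteins but lack the T cell receptor.

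A member had at least 500 genes, under 15% mitochondrial counts and at most 8000 UMIs. It carried at least 1 UMI of Cd3e, Cd3d or Cd3g and at least 2 detected genes of the 5 Cd3e, Cd3d, Cd3g, Trac and Trbc2, which encode the T cell receptor complex. It had at least 1 UMI of Cd8a and Cd8b1, the genes of the CD8 chains, and 0 UMIs of Cd4, Foxp3 and the C1q genes. Since these genes chose the cells, their levels are a description: Cd8a was seen in 91 members and Cd8b1 in 72, both in 60, and 28 members rested on exactly 1 UMI of the pair. Trbc1, the T cell receptor chain gene that the rule left out, was seen in 66 members, at 618 CPM (CPM: the gene's UMIs over all UMIs of the summed cells, scaled to 1e6).

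Members had a median of 2647 UMIs (736 to 7878), 1306 genes and 3.00% mitochondrial counts, and together held 331476 UMIs. At the edge of the rule, 29 further cells failed the UMI limit alone, with 8118 to 23574 UMIs. Another 210 cells failed the CD8 criterion alone, 13 the T cell receptor criterion, 4 the C1q criterion, 1 the Cd4 criterion and 1 the Foxp3 criterion. Signs of other cells were counted in the members themselves: 17 held at least 2 markers of another cell class and 5 held a UMI of Xist, an RNA of female cells which the host's male cells lack. Single markers were more common: Spp1, counted among the carcinoma markers, was seen in 59.2% of members, and its source was not tested. A Y-linked gene was seen in 56 members, and none held a UMI of Trdc, the constant region of the delta chain. In all 103 the multiplexing tag with the most counts was the main tag of the barcode set, and 0 barcode sequences were shared between sets.

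The number of CD8 T cells varied widely between barcode sets. There were 0, 28, 33, 9, 20 and 13 members in sets 1 to 6, which were 0%, 1.27%, 3.97%, 0.238%, 0.740% and 0.964% of each set's kept cells. Set 3 stood above the others and had the fewest kept cells, 832, against 3783 in set 4. For set 1, 0 of 2889 cells allow a share of up to 0.104%, taken as 3 cells of the total, and the exact interval reaches 0.128%. Among the 403 cells that passed the T cell criteria, CD8 T cells made up 25.6% (95% binomial interval 21.4 to 30.1), and the sets with members ran from 13.1% in set 6 to 37.9% in set 3. Only 14 such cells came from set 1, so that 0 CD8 T cells there still allows a share of up to 21.4% by the same limit. All intervals are exact and speak of counting error alone, so the variation from tumor to tumor is outside them.

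**Figure D1:**
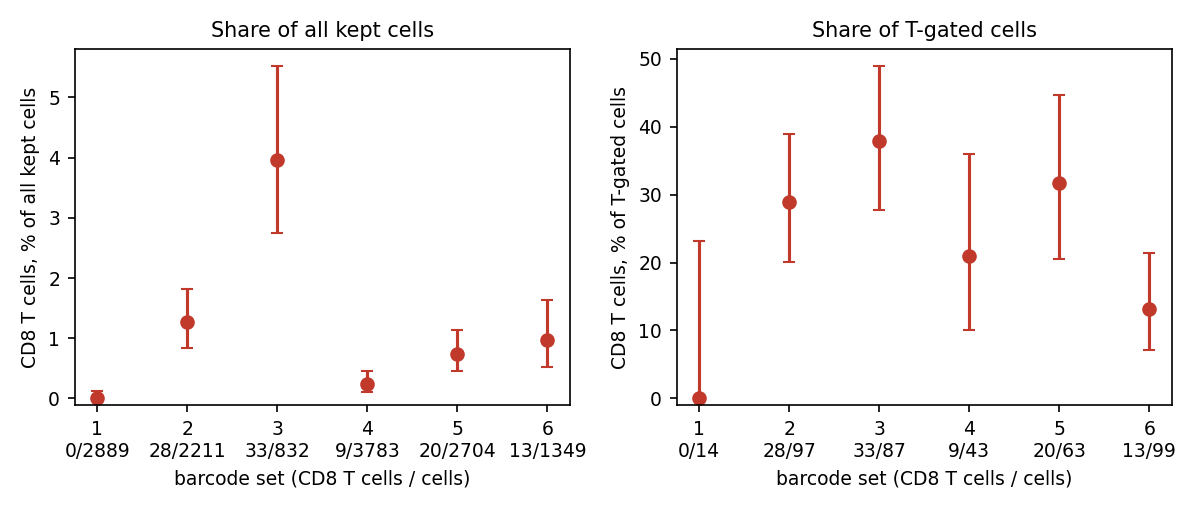
Share of CD8 T cells in each barcode set, as a percent of all kept cells (left) and of cells passing the T cell criteria (right), with exact 95% binomial intervals; the counts stand under each set. On the left set 3 is highest at 3.97%, and on the right the intervals of sets 2 to 5 overlap.

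Levels were compared with 2 populations of the same pool. The first was 267 CD8-negative conventional T cells, which passed the same criteria with Cd8a, Cd8b1 and Foxp3 at 0 (median 1819 UMIs). The second was 154 NK cells, which lacked the CD3 genes and Trac and were chosen by Ncr1, Klrb1c, Klrd1, Klre1 and Gzma (median 3166 UMIs). There was 1 pooled sample of each, so no test was run, and a gene counts as higher or lower where the ratio of CPM passed 2-fold with at least 20 UMIs over both populations. The comparison T cells were a mixed population: 57 held a UMI of Cd4, 43 one of Il13 or Il5, 24 one of Trdc, and 60 held at least 2 markers of another cell class. Fibroblast markers summed to 148 CPM in CD8 T cells and 1678 CPM in these cells, carcinoma markers to 386 and 1564 CPM, and macrophage markers to 96.5 and 387 CPM. Among the 154 NK cells, 36 held at least 2 markers of another class and 18 a UMI of Trdc. In NK cells carcinoma markers summed to 3380 CPM, fibroblast markers to 126 CPM and macrophage markers to 80.2 CPM. No alternative left such NK cells out. The part of such cells and of free RNA in the differences was not tested beyond the alternative comparison cells given beside the results. Of the 267 cells, 210 held UMIs of neither Cd4 nor the CD8 genes. How many of these were CD8 T cells whose CD8 UMIs were missed was not tested. The alternative comparison with the 57 cells holding a Cd4 UMI leaves them out.

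Granule genes were higher than in the CD8-negative conventional T cells. Of 15 cytotoxic genes measured, 7 were more than 2-fold higher and 0 lower, with a median ratio of 1.86, where 6.13% of all 5559 genes were higher and 12.7% lower with a median of 0.990. These shares stand beside every later count against the CD8-negative cells in the main setting. The list summed to 9883 CPM (95% Poisson interval 9548 to 10227) in CD8 T cells and 4646 CPM in the CD8-negative cells. It was at 5117 CPM in 31 regulatory T cells, which passed the T cell criteria with Foxp3 seen and the CD8 genes at 0. In CD8 T cells of sets 2 to 6 the list was 9351, 11447, 5624, 11999 and 7724 CPM. These values were above the CD8-negative cells of the same set in all but set 4, which had 9 members. Without set 3, 7 of 14 genes were higher, where 6.13% of all genes were. Against the 57 comparison cells with a Cd4 UMI 11 of 14 were higher and 1 lower, beside 14.7% and 9.31% of all genes.

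Gzmb, encoding granzyme B, a protease that starts apoptosis in target cells, reached 2821 CPM (2643 to 3007) against 427 CPM, a ratio of 6.60 (5.75 to 7.60). Its levels in sets 2 to 6 were 2406, 2260, 1454, 5316 and 2048 CPM, against 356, 406, 728, 451 and 394 CPM in the CD8-negative T cells. All 5 CD8 values lay above all 5 of the others, and set 5 stood highest. Gzmb was seen in 74 members, but the 10 cells with most of it held 53.9% of its UMIs and 1 cell held 83 of them.

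Prf1, encoding the pore-forming perforin, was at 220 CPM against 34.1 CPM, a ratio of 6.46 (3.93 to 11.0). In sets 2 to 6 it was 258, 175, 71.5, 391 and 134 CPM, each above the other T cells of that set. Nkg7, a granule membrane protein needed for degranulation, was the most even of the group: 1747, 1795, 1668, 1911 and 1825 CPM in the 5 sets, seen in 92 members, and 3.76 times (3.27 to 4.34) the level of the CD8-negative cells. After thinning each cell to 1000 UMIs, which 99 members reached, 78.8% of CD8 T cells held a UMI of Nkg7 and 61.6% (51.3 to 71.2) one of Gzmb. The same shares were 29.0% and 18.9% in the CD8-negative T cells and 1.2% and 0.8% in C1q-positive cells (median 2990 UMIs before thinning), macrophages that should lack both genes. Of the regulatory T cells, 26 reached this depth, with shares of 15.4% and 42.3%. Their interval for Gzmb, 23.4 to 63.1, overlapped that of CD8 T cells. Before thinning, 89.3% and 71.8% of members held a UMI of Nkg7 and Gzmb.

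The other granzymes sat in few cells. Gzma, encoding the trypsin-like granzyme A, was at 1346 CPM against 151 CPM, but in sets 2 to 6 the CD8 values were 143, 4055, 119, 69.8 and 178 CPM. Set 3 decided the ratio of 8.91, whose log2 of 3.16 became 0.073 without that set, and 10 cells held 96.2% of the UMIs. Gzmf was at 637 CPM against 29.2 CPM, with 90.0% of its UMIs in 10 cells, and 1274, 194, 119, 851 and 801 CPM in the sets. Every Gzmf UMI of the CD8-negative cells came from set 5: the log2 ratio of 4.44 was 3.57 without set 2, 3.85 without set 6, and 6.66 without set 5, where the comparison rests on the floor of 3 counts. Gzmk, encoding a granzyme found in memory-like CD8 T cells, was at 136 CPM (99.0 to 182) against 11.4 CPM, a ratio of 11.9 (5.34 to 31.4), and was seen in 23 members. Its log2 ratio of 3.58 was 4.92 without set 3. After thinning, 16 members held a Gzmf UMI and 9 a Gzmk UMI, and 0 held both. Before thinning 21 members held a Gzmf UMI and 23 a Gzmk UMI. These cells are too few, and the thinned depth too low, to tell whether the 2 genes keep apart. Gzmc, Gzmd, Gzme, Gzmf and Gzmg are close relatives in 1 cluster, and whether the counting split their reads was not tested.

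The order against NK cells was different. In that comparison, 2 of 16 cytotoxic genes were higher and 6 lower (7.63% and 5.83% of all 5008 genes), with a median ratio of 0.65 against 1.09 over all genes. These shares of all genes stand beside every later count against NK cells in the main setting. Gzmb and Nkg7 were near the NK level, at ratios of 0.881 (0.812 to 0.955) and 1.02 (0.915 to 1.13). Prf1 was at 0.254 of the NK level, Gzmf at 0.320, and Gzmc at 84.5 CPM against 3624 CPM. Gzmk went the other way, at 23.7 times (7.60 to 119) the NK level, where it had 5.73 CPM. That log2 ratio of 4.57 was 3.65 without set 5.

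**Figure D2:**
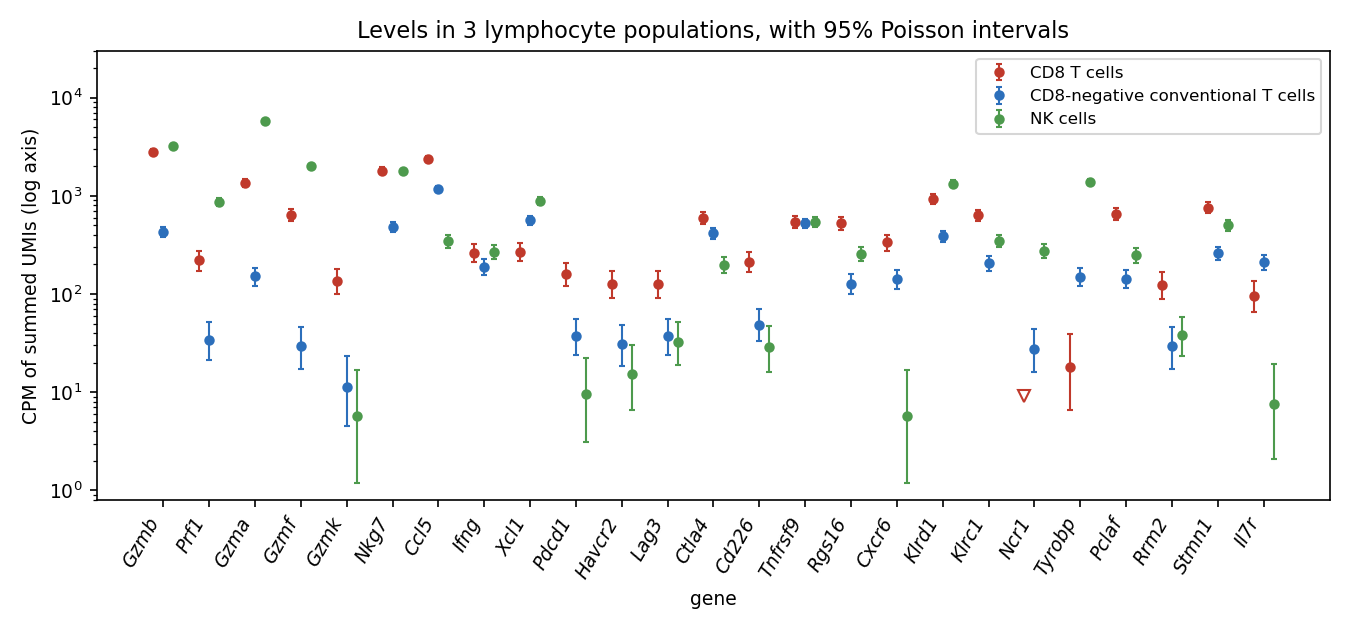
Levels of selected genes in the summed UMIs of CD8 T cells, CD8-negative conventional T cells and NK cells, on a log axis in CPM with exact 95% Poisson intervals; an open triangle stands at the limit of 3 counts for a gene with 0 counts. Gzmb and Nkg7 in CD8 T cells lie near the NK level, Pdcd1, Havcr2 and Cxcr6 lie above both other populations, and Ncr1 had 0 counts in CD8 T cells.

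To show what stands before the genes that led these differences, RefSeq promoters of build GRCm38.p6 (250 bases before to 50 after the start) were searched on both strands for 4 short motifs. Of the 15 genes with the highest ratio over CD8-negative T cells, 14 matched the table. Motifs and the genes printed were chosen after the values were seen. A gene was counted if any of its promoters held the motif, while the percents are of single promoters. The counts and the percents are therefore not like for like. TGTGGT, the core that RUNX factors bind, stood in 6 of the 14 (Gzma, Gzmb, Gzmf, Prf1, Syce2 and Gm36723) and in 16.8% of all 32851 promoters. GGTGTGA, bound by T-box factors, stood in Gzmk alone of the 14 and in 3.98% of promoters. TTTGGCG or TTTCCCG, forms of the E2F site, stood in Pclaf and Syce2 and in 4.84% of promoters, and CCAAT stood in 6 of 14 and in 37.4%. The promoters below belong to Gzmb (chr14:56262285-56262584, minus strand), Gzmk (chr13:113180916-113181215, minus strand) and Pclaf (chr9:65890073-65890372, plus strand). They come from a killing gene near the NK level, a granzyme gene far above it and a cell-cycle gene, and capitals mark matches to any of the 4 motifs. Windows of Rrm2, another cell-cycle gene, and of Pdcd1 were searched in the same way and are not printed. Each held 1 match to CCAAT and 0 to the RUNX, T-box and E2F letters.
Gzmb: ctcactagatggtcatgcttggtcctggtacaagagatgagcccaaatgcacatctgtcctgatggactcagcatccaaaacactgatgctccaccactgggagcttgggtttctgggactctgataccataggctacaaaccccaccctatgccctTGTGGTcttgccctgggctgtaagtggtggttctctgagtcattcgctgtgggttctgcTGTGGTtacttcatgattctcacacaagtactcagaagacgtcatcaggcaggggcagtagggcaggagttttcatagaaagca
Gzmk: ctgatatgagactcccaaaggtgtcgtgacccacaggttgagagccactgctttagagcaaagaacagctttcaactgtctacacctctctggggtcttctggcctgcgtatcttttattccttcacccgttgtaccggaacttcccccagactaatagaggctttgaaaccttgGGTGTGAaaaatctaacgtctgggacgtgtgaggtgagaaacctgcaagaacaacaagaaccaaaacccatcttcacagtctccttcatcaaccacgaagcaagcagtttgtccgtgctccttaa
Pclaf: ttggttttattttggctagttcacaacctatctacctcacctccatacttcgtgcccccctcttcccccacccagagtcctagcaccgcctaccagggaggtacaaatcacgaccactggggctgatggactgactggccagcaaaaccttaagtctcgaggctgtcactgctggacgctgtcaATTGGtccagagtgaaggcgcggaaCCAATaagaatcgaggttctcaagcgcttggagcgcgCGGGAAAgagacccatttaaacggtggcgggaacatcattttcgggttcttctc
The Gzmb window held 2 matches to the RUNX core, the Gzmk window 1 to the T-box letters, and the Pclaf window 1 to the E2F letters and 2 to CCAAT. A match describes the letters and is not evidence of binding. The genes of the RUNX and T-box factors of killer cells were not higher than in the other T cells: Runx3 was at 368 CPM against 385, Tbx21 at 30.2 against 43.9 and Eomes at 51.3 against 76.4 CPM. Eomes and Tbx21 were lower than in NK cells, at ratios of 0.193 and 0.395.

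CD8 T cells carried some of the receptors shared with NK cells. Klrd1, Klrc1 and Klrk1, encoding CD94, NKG2A and NKG2D, were at 932, 631 and 308 CPM, which were 2.40, 3.06 and 2.75 times the level of CD8-negative T cells, and each was higher in 5 of 5 sets. Klrc1 was above the NK level, at a ratio of 1.81 (1.48 to 2.22). Of 10 NK receptor genes that did not choose the NK cells, 7 were lower and 0 higher in CD8 T cells, with a median ratio of 0.08. Tyrobp, encoding the adaptor DAP12, was at 18.1 CPM against 1389 CPM, and all its UMIs came from 1 cell. Fcer1g, encoding another adaptor, was at 145 CPM against 2874 CPM and seen in 16 members. The Ly49 receptor genes Klra8 and Klra9 had 0 counts. Ncr1, which chose the NK cells, also had 0 counts in CD8 T cells.

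Genes of T cell receptor signaling set the cells apart from NK cells in turn. Of 14 such genes, 7 were higher and 0 lower, with a median ratio of 1.98, and against the other T cells 1 of 14 was higher. Lat, encoding the central adaptor of the receptor, was at 136 CPM against 9.55 CPM in NK cells. Themis and Bcl11b, a T cell signaling protein and a T lineage transcription factor, were at 217 and 160 CPM and had 0 counts in NK cells, so they were at least 37.9-fold and 27.9-fold higher. The log2 bound for Themis was 5.24, and 4.49 without set 5. The higher gene against the other T cells was Trbc1, whose sister gene Trbc2 was part of the rule, at 344, 640, 834, 474 and 1024 CPM in sets 2 to 6.

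**Figure D3:**
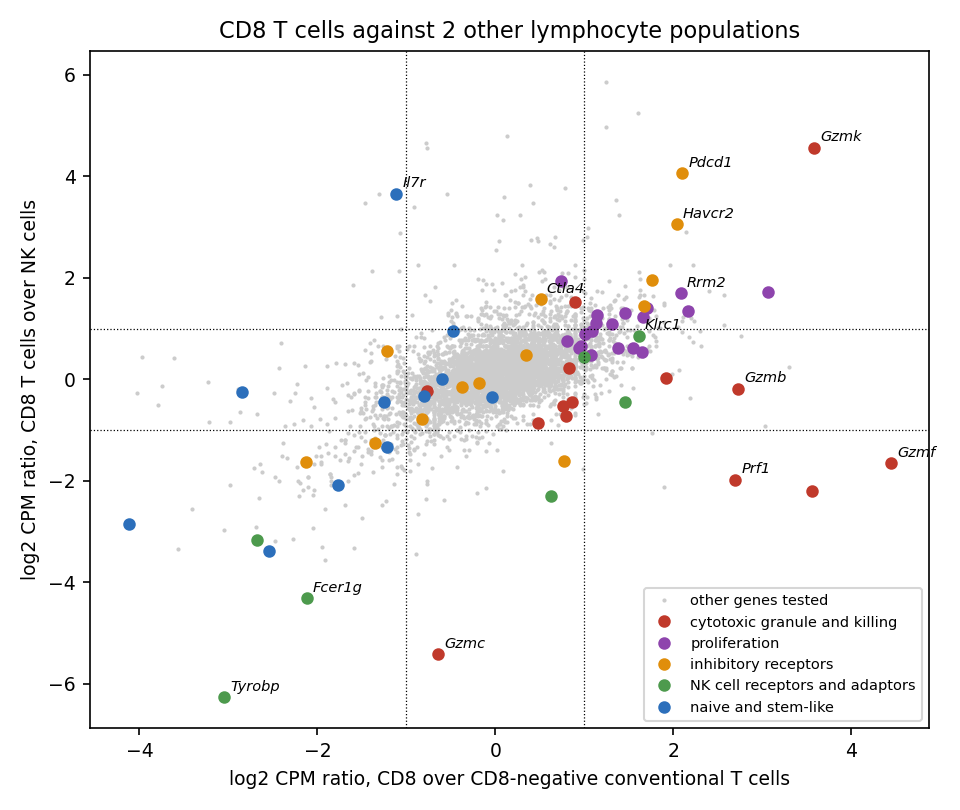
Each point is a gene with at least 20 counts in both comparisons; the x axis gives the log2 CPM ratio of CD8 T cells over CD8-negative conventional T cells and the y axis that over NK cells, with dotted lines at 2-fold and 5 gene lists in colour. Gzmk, Pdcd1 and Havcr2 lie above 2-fold on both axes, Prf1 and Gzmf are above on the first and below on the second, and Tyrobp and Fcer1g are below on both.

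Among secreted signals, 1 chemokine was higher than in both other populations. Ccl5, which attracts T cells and myeloid cells, was at 2386 CPM, 2.03 times (1.84 to 2.25) the CD8-negative and 6.94 times (5.89 to 8.20) the NK level. It was 4439, 2590, 381, 1493 and 2026 CPM in sets 2 to 6, lowest in set 4, the 1 set where it was below the other T cells. A Ccl5 UMI was found in 61.6% of thinned CD8 T cells (78.6% before thinning) and also in 21.3% of C1q-positive cells. Of the 10 cytokine and chemokine genes measured against CD8-negative T cells, Ccl5 was higher and 5 were lower, with a median ratio of 0.82.

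Ifng, encoding the cytokine interferon gamma, was at 262 CPM (210 to 324) against 188 and, in NK cells, 269 CPM. Its values in sets 2 to 6 were 129, 310, 286, 251 and 356 CPM, while those of the CD8-negative cells of these sets ran from 31.8 to 549 CPM, so the populations overlapped. A UMI of Ifng was in 26.3% of thinned CD8 T cells (40.8% before thinning), 6.7% of the CD8-negative cells and 0.4% of C1q-positive cells. Tnf was at 15.1 CPM against 76.4, and Il2 and Il10 had 0 counts. Xcl1, the chemokine that draws cross-presenting dendritic cells, was at 268 CPM against 562 and 883 CPM. The order of Xcl1 depended on the comparison cells: against the 57 CD8-negative cells with a Cd4 UMI its log2 ratio was 3.53, in place of -1.07, and without set 3 it was -1.93. Ccl4 was at 531 CPM, and 26.3% of thinned members held a UMI of it. That share was 6.3% in the CD8-negative cells, 18.0% in NK cells and 32.5% in C1q-positive cells, which make this chemokine themselves.

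Inhibitory receptors were few in UMIs, and the PD-1 gene was among the genes highest over NK cells. The inhibitory receptor list also held genes of other kinds, among them the ligand gene Cd274 and the enzyme genes Entpd1 and Nt5e. Of 14 genes of the list, 5 were higher and 3 lower than in CD8-negative T cells, with a median ratio of 1.34. Against NK cells, 5 of 13 were higher and 3 lower, beside 7.63% and 5.83% of all genes. Pdcd1, encoding PD-1, was at 160 CPM (120 to 209) against 37.4 and 9.55 CPM, ratios of 4.28 (2.58 to 7.32) and 16.7 (6.74 to 53.7). It was 43.0, 146, 262, 181 and 245 CPM in sets 2 to 6, lowest in set 2, and above both other populations in 5 of 5 sets. Lag3, a receptor for MHC class II, was at 127 CPM, 3.39 times the CD8-negative level, with 158, 126, 119, 69.8 and 178 CPM in the sets.

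Havcr2, encoding TIM-3, was at 127 CPM, a ratio of 4.11 (2.34 to 7.47), and ran from 22.3 CPM in set 6 to 204 CPM in set 3. Cd160 and Entpd1, the latter encoding CD39, were at 72.4 and 42.2 CPM, 3.18 and 3.25 times the CD8-negative level. Cd274, encoding the PD-1 ligand PD-L1, Lilr4b, and Nt5e, encoding the enzyme CD73, were the 3 lower genes of the list, at 48.3, 27.2 and 45.3 CPM. Of the listed inhibitory receptor genes Ctla4 had the most UMIs, at 591 CPM against 416 in CD8-negative and 2077 CPM in regulatory T cells, which numbered 31. After thinning, a Pdcd1 UMI was found in 13 of 99 members, 13.1% (7.18 to 21.4), in 31.1% before thinning, and in 0 of 1000 C1q-positive cells, which allows a share of up to 0.3%. The 13 and the 12 members with a Lag3 UMI had 1 cell in common, as did the Pdcd1 and Havcr2 members, at a depth where a gene of this level is missed in most cells.

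Regulators tied to exhaustion were mixed. Of 13 measured, Rgs16 and Dgkz were higher and 4 were lower than in CD8-negative T cells, with a median ratio of 0.90. Rgs16, encoding a regulator of G protein signaling, was at 525 CPM against 127, and its 558, 679, 381, 349 and 534 CPM in sets 2 to 6 all lay above the highest CD8-negative set, 159 CPM. Tox, encoding a transcription factor of exhausted T cells, was at 84.5 CPM against 42.2, a ratio of 2.00 with an interval of 1.13 to 3.55. It was higher in 4 of 5 sets. Nr4a1 and Nr4a3, early targets of T cell receptor signals, were at 78.4 and 229 CPM, 0.431 and 0.499 of the CD8-negative level. Ikzf2 and Maf were also lower, at 395 and 33.2 CPM against 967 and 242 CPM.

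Of 9 costimulatory receptors, 1 was higher and 1 lower, near the shares of all genes. The higher one was Cd226, an activating receptor that shares its ligand CD155 with TIGIT, at 214 CPM (167 to 270) against 48.7 and 28.7 CPM, and at 57.3, 165, 310, 307 and 334 CPM in sets 2 to 6. Set 2, low for Pdcd1 as well, was lowest. Tnfrsf9, encoding 4-1BB, whose ligand is among the listed reagents, was at 543 CPM, equal within counting error to CD8-negative T cells (ratio 1.03, 0.858 to 1.25) and NK cells (545 CPM). It was 716, 446, 429, 628 and 467 CPM in the sets, and 40.4% of thinned members (63.1% before thinning) held a UMI against 6.1% of C1q-positive cells. Tnfrsf4, encoding OX40, was at 136 CPM against 231 in CD8-negative and 1.91 CPM in NK cells, and Cd28 was at 564 CPM.

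Cell-cycle genes were also higher. Of 19 proliferation genes measured, 15 were higher than in CD8-negative T cells and 0 lower, with a median ratio of 2.47, and 10 were higher than in NK cells. The list summed to 6818 CPM (6540 to 7105) against 2877 and 3605 CPM. In sets 2 to 6 it was 4081, 7829, 9651, 6558 and 6522 CPM, above the CD8-negative cells of each set, which had 3335, 1218, 4557, 2162 and 2679 CPM. NK cells of these sets had 5561, 3561, 6104, 1728 and 2245 CPM, above the CD8 T cells in set 2 only. With cells of at least 2000 UMIs only, chosen as an alternative after seeing the data, 11 of 19 genes were higher and 0 lower. The shares of all genes were then 6.11% and 12.5%. With members showing signs of another class left out, 11 of 19 were also higher, beside 5.96% of all genes.

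Hmgb2, encoding a chromatin protein that rises in dividing cells, was at 2444 CPM against 989 CPM, lowest in set 2 with 1375 CPM and between 2428 and 3169 CPM in sets 3 to 6. Stmn1, a microtubule regulator, was at 372, 902, 1382, 488 and 890 CPM in the sets, each above the CD8-negative cells. Pclaf, a PCNA-binding factor of DNA synthesis, reached 658 CPM (573 to 751) against 143 CPM, and Tyms and Rrm2, enzymes of nucleotide synthesis, were 8.36 and 4.23 times higher. Top2a and Mki67 were at 362 and 151 CPM, 2.75 and 2.21 times the level of the CD8-negative cells. Tyms was seen in 18 members and Rrm2 in 17. Without set 2 the log2 ratio of Pclaf, 2.20, was 2.85, and without set 3 that of Rrm2, 2.08, was 1.44.

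Genes of resting and stem-like T cells were lower. Of 13 measured, 8 were lower and 0 higher than in CD8-negative T cells, with a median ratio of 0.43. Klf2, a transcription factor of resting T cells, was at 54.3 CPM against 185, and Id3 at 9.05 CPM (1.87 to 26.4) against 158 CPM. Il7r, encoding the receptor of the survival cytokine IL-7, was at 96.5 CPM against 210, yet 12.6 times the NK level. Tcf7, encoding TCF-1, was at 93.5 CPM (63.5 to 133) against 141, and ran from 0 CPM in set 4 to 289 CPM in set 6.

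Among homing receptors, 1 gene stood far above the NK level. Over the list 2 of 15 were higher and 1 lower than in NK cells (7.63% and 5.83% of all genes), with a median ratio of 0.86. Cxcr6, the receptor for CXCL16 carried by T cells in tissue, was at 335 CPM (275 to 403), 2.37 times the CD8-negative level and 58.4 times (19.5 to 288) the NK level. It was 387, 398, 95.3, 349 and 312 CPM in sets 2 to 6, above both other populations in every one of these sets. The residency integrin gene Itgae had 1 UMI in all members. Of 16 homing genes, Cxcr6 was the 1 higher gene, and Cxcr3, Ccr2, Itgb7 and Cd69 were lower, with 9.05, 75.4, 45.3 and 302 CPM. Among cytokine receptors, Il2rb, shared by IL-2 and IL-15, was at 1080 CPM against 980, and Il2ra, the high-affinity IL-2 receptor chain, at 75.4 CPM against 400 CPM.

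**Figure D4:**
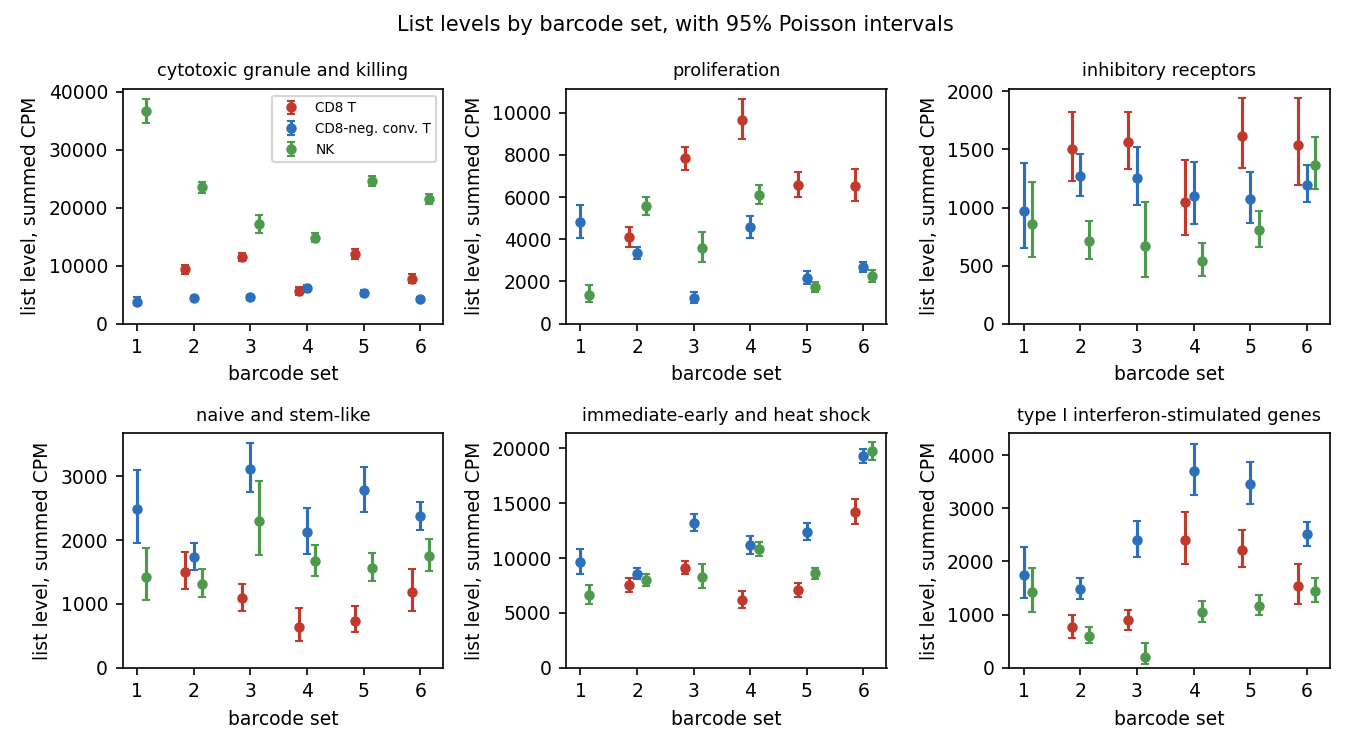
Summed CPM of 6 gene lists in each barcode set for CD8 T cells, CD8-negative conventional T cells and NK cells, with exact 95% Poisson intervals; set 1 held no CD8 T cells. The proliferation list of CD8 T cells lies above that of the CD8-negative T cells in sets 2 to 6, and the interferon list lies below it in each of them.

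Lists lower in CD8 T cells are given with the comparison cells in mind, of which 60 of 267 held markers of another class. Of 13 immediate-early and heat shock genes, 6 were lower and 0 higher, with a median ratio of 0.52: Fos was at 121 CPM against 495 and Fosb at 124 against 427 CPM. Many of these genes are also known to respond to tissue dissociation. The list was 7504, 9128, 6196, 7102 and 14202 CPM in sets 2 to 6, with set 6 highest in all 3 populations. Of 15 interferon-stimulated genes, 3 were lower and 0 higher, a count near the 12.7% lower among all genes, with a median ratio of 0.58, and their sum was 759, 892, 2407, 2218 and 1536 CPM in sets 2 to 6. Sets 4 and 5 were highest in CD8 T cells and also in CD8-negative T cells, at 3704 and 3458 CPM. Against the 57 cells with a Cd4 UMI the median ratio of the interferon list was 1.23, over 8 genes, and that of the immediate-early list 0.69.

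Ifi27l2a, an interferon-induced gene, was at 576 CPM and 25.1 times the NK level, and 35.4% of thinned members held a UMI of it. That share was 42.4% in CD8-negative T cells, 40.8% in C1q-positive cells and 1.3% in NK cells, and the log2 ratio over NK cells of 4.65 was 3.97 without set 4 and 6.13 without set 5. Genes of helper and regulatory T cells were lower for 8 of 10 measured, a direction that a rule with Cd4 and Foxp3 at 0 helps to set, and Il13 and Il17a had 0 counts against 309 and 40.6 CPM. Over all genes, the lowest ratios belonged to Il5, Areg, Il13, Hdc, Saa3, Ptgs2, Id3, Col1a1, Cxcl2 and Cxcl3. They include products of type 2 lymphocytes (Il5, Il13, Areg), fibroblasts (Col1a1) and myeloid cells (Cxcl2, Cxcl3). Set 2 weighed on several of them: without it the log2 ratio of Col1a1 was -1.96 in place of -4.03, that of Hdc -3.49 in place of -4.49, that of Il5 -4.28 in place of -5.46, that of Il13 -4.32 in place of -5.09, that of Areg -4.53 in place of -5.21 and that of Cxcl3 -3.03 in place of -3.93. Saa3 was at -2.43 in place of -4.42 without set 6, and Id3 at -3.39 in place of -4.12 without set 5. With comparison cells that showed signs of other classes left out, 145 remained, and 400 genes in place of 708 were lower, while 352 in place of 341 were higher.

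Over all genes, the 15 highest ratios over CD8-negative T cells went to Gzmf, Gzmk, Nrgn, Gzma, Tyms, Gm36723, Ifitm1, Gzmb, Prf1, Myo10, Racgap1, Syce2, Pclaf, Hist1h2ae and Slamf7. Besides the granule and cycle genes above, Nrgn, encoding a calmodulin-binding protein, was at 208 CPM against 21.1 CPM, higher in 5 of 5 sets, and near the NK level of 176 CPM. Ifitm1, an interferon-inducible membrane protein gene, was at 428 CPM against 63.4, but was seen in 19 members. Without set 3, the log2 ratio of Ifitm1 was 1.93 in place of 2.76, that of Nrgn 4.17 in place of 3.30 and that of Hist1h2ae 1.51 in place of 2.20, and without set 5 that of Syce2 was 1.34 in place of 2.21. Racgap1, which acts in cytokinesis, was at 115 CPM against 24.4 CPM. Slamf7, an activating receptor of killer cells, was at 66.4 CPM against 14.6 CPM.

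Of 13 glycolysis and hypoxia genes, 2 were higher, Slc2a3 and Tpi1 at ratios of 2.75 and 2.44, and 4 were lower, namely Slc2a1, Hk2, Ndrg1 and Vegfa. Hk2 and Ndrg1 changed sign once comparison cells with signs of other classes were left out. The list had a median ratio of 1.35 and summed to 4564 CPM against 3215 CPM in CD8-negative T cells. Gapdh was at 1635 CPM against 929 and 787 CPM. Of 10 apoptosis genes, 1 was higher and 3 lower than in CD8-negative T cells, with a median ratio of 0.87. Among all genes in this comparison, 6.13% were higher and 12.7% lower. Bcl2a1b and Bcl2a1d, near-identical survival genes between which reads cannot be told apart with certainty, were at 772 and 468 CPM, 2.83 and 3.10 times the NK level. Of 11 MHC class I genes 1 was higher, a count near the share of all genes. It was Psmb9, encoding a subunit of the immunoproteasome, at 287 CPM against 125 CPM. The metallothionein genes Mt1 and Mt2, which respond to copper and zinc, were at 434 and 220 CPM, with ratios of 1.07 and 0.990. Mt1 was 186, 330, 0, 1019 and 534 CPM in sets 2 to 6, and its log2 ratio over NK cells of 1.40 was 0.71 without set 5.

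Most targets of the listed reagents were not seen in the members. Apart from Tnfrsf9, the targets with counts were Vcp at 202 CPM, Ddx58 at 60.3, Tmem173 at 42.2, Nploc4 at 39.2 and Tgfbr1 at 12.1 CPM. Ido1, Ido2, Arg1, Arg2, Nos1, Nos2, Nos3, Adora3, Tlr7 and Tlr8 had 0 counts, which allows up to 9.05 CPM each.

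The members differed among themselves in Gzmb. After thinning, 61 of 99 held a Gzmb UMI: 11 of 25 in set 2, 20 of 32 in set 3, 6 of 9 in set 4, 17 of 20 in set 5 and 7 of 13 in set 6. The 2 parts therefore differ in their mix of sets, and the values that follow are descriptions of cells, with no test. The other cytotoxic genes summed to 8553 CPM (8162 to 8958) in cells with a Gzmb UMI and 4544 CPM (4167 to 4945) in those without. Gzma and Gzmf made up most of this gap, and 10 cells held 96.2% and 90.0% of their UMIs: without both genes the sums were 5468 CPM (5156 to 5794) and 4459 CPM (4086 to 4857). Gzma was at 2088 and 67.7 CPM, Gzmf at 996 and 16.9 CPM, and Ctla4 at 706 and 389 CPM. Tcf7 went the other way, at 23.8 CPM (7.74 to 55.6) and 203 CPM (130 to 302). After thinning 6 of 99 members held a Tcf7 UMI (12.6% before thinning), and 1 of the 6 also held a Gzmb UMI. These cells are too few, and the thinned depth too low, to tell whether Gzmb and Tcf7 keep apart.

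Xcl1 was 66.7 CPM (36.5 to 112) in cells with Gzmb and 635 CPM (499 to 795) in those without, and Nr4a2 was 296 and 702 CPM. The interferon-stimulated list was higher in cells with Gzmb, at 1721 and 914 CPM, and the immediate-early list lower, at 7385 and 10974 CPM. Pdcd1 was at 172 and 144 CPM, Nkg7 at 1940 and 1582 CPM, and the proliferation list at 6508 and 7547 CPM.

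Members were split by a UMI of Mki67, Top2a or Birc5, which 22 of 99 held after thinning (22.2%, 14.5 to 31.7). The same share was 10.5% (6.91 to 15.1) in CD8-negative T cells and 15.3% in NK cells. Regulatory T cells had a larger share, 26.9% (11.6 to 47.8), which was 7 of 26 cells. It was 10.8% in C1q-positive cells and 19.6% in Xist-positive cells without Ptprc, types that can also divide. The part of free RNA in these shares was not tested. The 22 were 2, 9, 3, 4 and 4 cells of sets 2 to 6 and had a median of 4425 UMIs against 2458 in the others. The other 17 proliferation genes summed to 11032 CPM in them and 4218 CPM in the rest. Gzmb was at 2954 CPM (2620 to 3319) and 2805 CPM (2593 to 3029), and Pdcd1 at 167 and 159 CPM, with overlapping intervals. Naive and stem-like genes were lower in these cells, at 605 CPM (460 to 783) and 1198 CPM (1061 to 1347), as was Ccl5, at 1513 and 2753 CPM. Xcl1 was higher, at 584 CPM (442 to 759) and 142 CPM (97.9 to 200). Xcl1 was seen in 21 members in all, so few cells set these values.

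**Figure D5:**
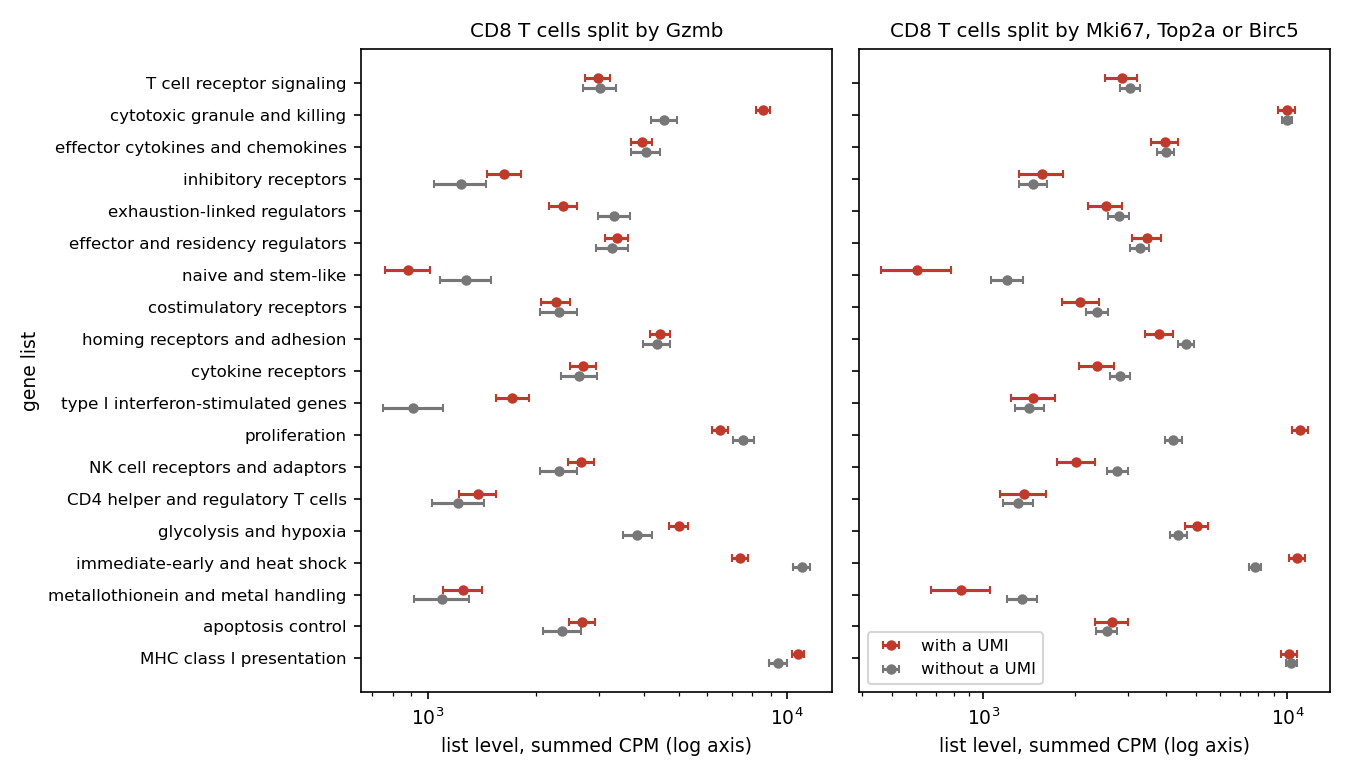
Summed CPM of gene lists, on a log axis with exact 95% Poisson intervals, in CD8 T cells that after thinning were with or without a UMI of Gzmb (left) or of Mki67, Top2a or Birc5 (right); the genes that define a split are left out of its lists. The cytotoxic list was at 8553 CPM in cells with Gzmb and 4544 CPM in those without (5468 and 4459 CPM without Gzma and Gzmf, which few cells held), and cells with a cell-cycle UMI had fewer naive and stem-like UMIs, 605 against 1198 CPM.

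Variable genes of the T cell receptor were rarely captured in these libraries of transcript ends. Of 163 Trav and Trbv genes in the file, UMIs were found in 19 members, 22 UMIs in all. Trbv12-2 was seen in 4 members of 3 sets, Trbv12-1 in 3 members, all from set 3, and Trbv17 in 2 members, both from set 6. These counts are too few to define clones.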

How the data were processed

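Per the labels' protocols, 3 vehicle and 3 treated tumors were tagged, pooled and sequenced as droplet 3' RNA. The authors deposited whole UMI counts for 32285 genes, 12 tags and 14818 cells. Per the submitters' processing notes, Cell Ranger 7.1, Seurat and build mm10 were used; per the file headers, cellranger 7.0.0 wrote the matrix. Filters on cells before deposit and doublet removal are not given in the sources used here, and no doublet caller was run. Sets held 7354560 to 38798439 gene UMIs.

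Members and lists were chosen with earlier results of these data known. Counts were summed over cells and scaled to CPM, with exact Poisson and binomial intervals of 95% (Python 3.11.15, numpy 2.4.6, pandas 2.3.3, scipy 1.17.1; figures with matplotlib 3.10.9), and ratios used a floor of 3 counts. Genes that chose the cells compared were left out of the counts of genes. Cells were thinned to 1000 UMIs for shares, with 1000 C1q-positive cells and 1000 Xist-positive cells without Ptprc as background. The genes for shares and pairs were chosen after values were seen.

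In each gene list, genes named are up to 3 with the highest CPM and up to 3 each way past 2-fold with at least 20 counts; over all genes the 15 highest and 10 lowest ratios over CD8-negative T cells and the 10 at either end over NK cells, and every target of a reagent. Any other gene named was picked once its values had been seen. Planned tests between treated and vehicle tumors were not run. The steps were tested on simulated data. A few genes are not reported here.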

Additional observations from a re-analysis of the deposited data

How the results depend on the processing

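No paired analysis was possible because no label ties cells to a numbered tumor; this concerns treated against vehicle tumors only, and cell populations of the same barcode set are given side by side in the report. The planned edgeR, DESeq2 and replicate-number fits were not run. The number of CD8 T cells stayed within 1.5 times of 103 in all 12 alternatives tried. Their percent of kept cells was 0.748, and 0.959 with no UMI limit, 0.610 with at most 5000 UMIs, 0.545 with at least 2 CD8 UMIs, 0.603 without members showing signs of another class, and 0.541 to 0.947 with 1 barcode set left out. Leaving out 1 set gave 295 to 370 genes higher and 559 to 665 lower than in CD8-negative T cells, and 328 to 413 higher and 231 to 300 lower than in NK cells. Against cells with a Cd4 UMI 513 genes were higher and 325 lower; with at least 50 counts the counts were 128 and 283, and 135 and 95 over NK cells; past 1.5-fold they were 968 and 1247, and 1013 and 614. Chosen after seeing the data, leaving out comparison cells with signs of other classes gave 400 lower genes. Using only cells with no UMI of 7 cell-cycle genes (45 members and 208 others), also chosen so, gave 251 higher and 429 lower. Of the proliferation list 2 of 6 genes were then still higher, where 6.57% of all genes were.

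Of 1743 log2 ratios over CD8-negative T cells computed under alternatives, 1494 stayed within the counting interval of the main value and 18 changed sign, as did 1 of 987 over NK cells. Those that changed sign were negative in the main setting. With no UMI limit they were Ifit1 (0.14) and, over NK cells, Id3 (0.015), and with at most 5000 UMIs S100a8 (0.49), H2-Ab1 (0.74) and H2-Aa (0.64). S100a8 was at -1.91, and with 1 set left out between -1.99 and 0.15, the latter without set 6. Against cells with a Cd4 UMI, Xcl1 (3.53), Fcer1g (0.52), Jun (0.0014) and Klra7 (0.050) changed sign. Without comparison cells with signs of other classes, Spp1 (0.50), Col1a2 (1.23), Hk2 (0.47), Il10ra (0.23), Lyz2 (0.056), Ndrg1 (0.056), H2-Ab1 (0.38) and H2-Aa (0.86) did, and H2-Aa (1.00) among cells with no cell-cycle UMI. The cause was not tested; each alternative uses fewer or other cells, and where a population had 0 counts the value rests on the floor of 3 counts. With 103 cells and 331476 UMIs, genes under about 9.05 CPM could not be told from 0, and variation from tumor to tumor could not be measured.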
